A study of Rattus norvegicus with 11 samples.

Results

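The miR-106b~25 and miR-106a-363 clusters are paralogs of miR-17~92, a cluster known for promoting cell-cycle entry, and they were followed here in isolated pancreatic islets of Sprague-Dawley rats at 2 ages, together with the single gene miR-92b, which shares a seed with several of them. Members were all sense rows of the deposited count table named miR-106a, miR-106b, miR-93, miR-25, miR-18b, miR-20b, miR-19b2, miR-92a2, miR-363 or miR-92b. They came to 13 mature arms among 898 features, from 8 of the 10 names. No row was named miR-106a or miR-18b. Islets were taken at postnatal day 10 (P10, 10-day-old pups, 1.5 weeks, 5 libraries) and from males of 3 months (12 weeks, 6 libraries), all labelled as controls and as biological replicates. The labels used here give no sex for the pups and do not say whether a library pools animals, so age and sex cannot be told apart, which bears most on the X-linked cluster.

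A microRNA is cut from a hairpin with a 5p and a 3p arm. The retained arm guides Argonaute to mRNAs through its seed, bases 2 to 8. The miR-106b~25 cluster is processed from transcripts of Mcm7, which encodes a subunit of the replicative DNA helicase, and its products, like those of miR-17~92, are known to restrain inhibitors of the cell cycle and pro-apoptotic genes. The miR-106a-363 cluster lies on chromosome X. Beta cells divide in the suckling period and rarely in the adult.

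RefSeq (GRCr8) held a mature sequence for 13 of the 13 arms. Those the results turn on are grouped below by seed, in capitals, since arms that share a seed are predicted to share targets. The first group carries the seed AAAGUGC of the miR-17 family, and miR-17-5p and miR-20a-5p, which are no members, are added for comparison.
miR-93-5p: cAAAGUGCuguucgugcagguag
miR-106b-5p: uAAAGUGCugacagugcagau
miR-20b-5p: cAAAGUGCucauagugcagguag
miR-17-5p: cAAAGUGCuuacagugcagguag
miR-20a-5p: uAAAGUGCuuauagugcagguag
The second group carries the seed AUUGCAC of the miR-25 family.
miR-25-3p: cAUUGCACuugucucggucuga
miR-92a2-3p: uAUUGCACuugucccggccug
miR-92b-3p: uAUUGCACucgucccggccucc
miR-363-3p: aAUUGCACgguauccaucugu
The remaining arms above 10 CPM (counts scaled to the library total) with a call have seeds of their own or that of miR-19.
miR-19b2-3p: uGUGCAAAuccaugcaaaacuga
miR-106b-3p: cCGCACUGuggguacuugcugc
Aligned at the 5′ end, miR-93-5p and miR-106b-5p differed at 5 of 21 bases, and miR-25-3p differed from miR-92a2-3p at 3 of 21 and from miR-363-3p at 13 of 21. None of these differences lay in the seed. The mature sequence of miR-92a2-3p is identical to that of miR-92a1-3p from chromosome 15, and that of miR-19b2-3p to that of miR-19b1-3p. How the authors divided reads between such loci is not stated, so the rows of miR-92a2 and miR-19b2 are uncertain as measures of the X-linked gene.

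Library totals ran from 1430412 to 4468745 counts, so 1 count was worth at most 0.847 CPM, and intervals and spreads below cover the libraries as sequenced. CPM were scaled with edgeR's TMM factors. The arms are of near-equal length (21 to 24 bases), but ligation favours some sequences, so the order of levels between arms is less secure than a change in 1 arm. Of the 457 features that edgeR's quasi-likelihood model tested, 135 were lower and 97 higher in adults after adjustment by Benjamini and Hochberg, 50.8% in either direction. The islet marker miR-375-3p was at 113191 to 166035 CPM at P10 and at 251321 to 325126 CPM in adults.

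Most of the abundant arms were lower in adult islets, and none was higher. Of 10 tested arms, 6 fell from P10 to adulthood and 4 did not pass the test, against 29.5% of all tested features that fell. The arms that fell were miR-93-5p, miR-106b-5p, miR-25-3p, miR-106b-3p, miR-92a2-3p and miR-19b2-3p. The mature sequences of miR-92a2-3p and miR-19b2-3p also occur on chromosome 15, so these rows are uncertain as measures of the X-linked gene. The median log2 fold change over the 10 arms, adult minus P10, was -0.62, and it was -0.11 over all 457 features. For 5 arms every adult library lay below every P10 library, where 16.4% of all tested features did so and 30.0% separated in either direction. These sizes hang on the TMM scaling. With plain library totals, which shift all features by a median of -0.27, 9 of the 10 arms fell and the median was -0.89. With upper-quartile scaling, a shift of 0.16, 5 fell and the median was -0.45. The share of higher calls among all features was 41.8% with TMM, 22.4% with library totals and 55.2% with upper-quartile scaling. No member was called higher by edgeR, DESeq2 or limma-voom, and 0 were higher at an unadjusted p under 0.05 in edgeR. The plot of CPM by library shows the separation of the ages arm by arm.

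**Figure D1:**
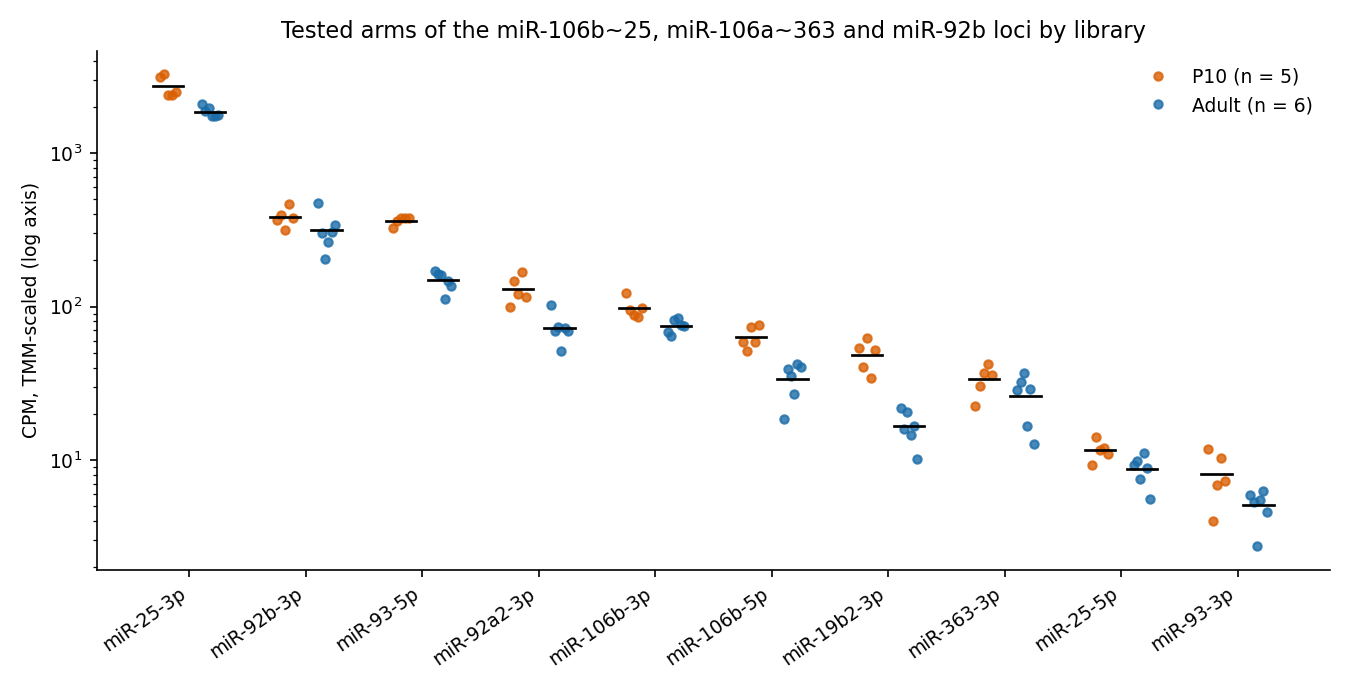
CPM (TMM-scaled, log axis) of the 10 tested arms in each P10 library (orange, n = 5) and adult library (blue, n = 6), ordered by mean level, with bars at the group means. For miR-25-3p, miR-93-5p, miR-106b-3p, miR-106b-5p and miR-19b2-3p the adult points all lie below the P10 points, while those of miR-92b-3p, miR-363-3p, miR-92a2-3p, miR-25-5p and miR-93-3p overlap.

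The miR-106b~25 cluster occupies 472 bases on the minus strand of chromosome 12 (chr12:21364981-21365452, Rnor_5.0, from the first to the last mature base, and the build of all arm positions here). In RefSeq (GRCr8) the genes Mir25, Mir93 and Mir106b all lie inside Mcm7 (chr12:22155921-22163320), whose promoter is also on the minus strand. Of its 6 arms, all of them tested, 4 fell and 2 did not pass. Among those that fell, the point estimate was largest for miR-93-5p and smallest for miR-106b-3p. Of the ratios between arms of the cluster tested below, only that of miR-93-5p to miR-25-3p differed between the ages.

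miR-93-5p (chr12:21365223-21365245), known to target the cell-cycle inhibitor p21, was at 323.1, 361.7, 376.7, 375.9 and 376.7 CPM in P10 replicates 1, 3, 4, 5 and 6. In the 6 adult libraries it ran from 111.2 to 170.2 CPM with a median of 153.5. The groups are far apart, and the highest adult library holds less than the lowest pup library by a wide margin. The pup mean was 362.8 ± 23.1 CPM (SD, n = 5) and the adult mean 147.8 ± 21.6 CPM (SD, n = 6), a 2.45-fold fall (log2 fold change -1.30 ± 0.13 SE, edgeR adjusted p = 4.71e-06).

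miR-106b-5p (chr12:21365432-21365452) has the same seed and fell 1.86-fold. It was at 58.8, 51.1, 73.1, 58.7 and 75.7 CPM in the P10 libraries, and between 18.6 and 42.4 CPM with a median of 37.2 in adults. The ages did not overlap, and the lowest adult value was that of replicate 1. The log2 fold change was -0.90 ± 0.20 (SE, edgeR adjusted p = 0.00245).

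miR-25-3p (chr12:21364981-21365002), a repressor of the pro-apoptotic Bim in other tissues, was the most abundant member and ranked 39 among the 457 tested features by mean CPM. The P10 libraries held 3119, 3252, 2378, 2397 and 2510 CPM, in the order of replicates 1, 3, 4, 5 and 6, with replicates 1 and 3 highest. Adult libraries lay in a narrow band from 1737 to 2071 CPM with a median of 1816. All pup libraries were above all adult libraries, though pup replicates 4, 5 and 6 exceeded the highest adult library by little. The fall was 1.47-fold, with means of 2731 ± 420 CPM for pups (SD, n = 5) and 1859 ± 136 CPM for adults (SD, n = 6; log2 fold change -0.55 ± 0.11 SE, edgeR adjusted p = 0.000856).

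miR-106b-3p (chr12:21365391-21365412), the more abundant arm of its hairpin here, was at 123.2, 94.8, 87.9, 86.1 and 98.3 CPM at P10 and between 64.2 and 84.3 CPM in adults, with a median of 75.3. The groups touched closely without overlapping, and P10 replicate 1 stood highest. The 1.31-fold fall (log2 fold change -0.39 ± 0.14 SE, edgeR adjusted p = 0.0294) was the least secure of the 6. It did not pass without P10 replicate 1 (adjusted p = 0.0657), P10 replicate 6 (0.0501), adult replicate 2 (0.0543) or adult replicate 5 (0.0502), nor with upper-quartile scaling (0.242), DESeq2 size factors (0.0833), DESeq2 (0.0502), no filter (0.133) or the replicate block (0.141).

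The passenger arms were low. miR-25-5p was at 9.25 to 14.1 CPM at P10 and 5.62 to 11.1 CPM in adults, with a log2 fold change of -0.40 (95% interval -0.85 to 0.05, edgeR adjusted p = 0.129), and it passed only with library totals alone (0.0175). miR-93-3p was at 4.03 to 11.9 CPM at P10 and 2.75 to 6.27 CPM in adults, resting on 139 and 59 counts. Its log2 fold change was -0.68 (95% interval -1.29 to -0.07, edgeR adjusted p = 0.0593). It passed without P10 replicate 3, the library in which it was lowest at that age (adjusted p = 0.0268), with library totals alone (0.0199) and without the features that carry only an Ensembl identifier (0.0377), a setting chosen after seeing the data.

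The hairpins of miR-93 and miR-25 place their dominant arms on opposite sides, as these RefSeq sequences (GRCr8, chr12:22156844-22156930 and chr12:22156641-22156724, minus strand) show with both annotated arms in capitals.
Mir93: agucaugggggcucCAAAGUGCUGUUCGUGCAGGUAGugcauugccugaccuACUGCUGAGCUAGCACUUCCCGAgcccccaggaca
Mir25: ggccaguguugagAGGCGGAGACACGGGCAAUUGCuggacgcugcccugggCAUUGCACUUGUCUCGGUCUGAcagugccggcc
The 5p arm took 97.8% ± 0.935 (SD, n = 5) of miR-93 counts at P10 and 96.6% ± 1.03 (SD, n = 6) in adults. For miR-25 it took 0.430% ± 0.0801 at P10 and 0.469% ± 0.111 in adults, so nearly all reads were of the 3p arm at both ages. miR-106b used both arms: its 5p arm held between 32.3% and 45.4% of counts at P10 and between 21.4% and 38.0% in adults, and these ranges overlap.

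A limma model of log2 arm ratios, 5p over 3p, covered 127 precursors and called 22.0% of them. Of the 3 member precursors with both arms tested, 0 passed, while 2 were under 0.05 before adjustment. The log2 ratio shifted toward 3p in adults by -0.55 for miR-106b (95% interval -1.08 to -0.02, limma adjusted p = 0.110) and by -0.75 for miR-93 (interval -1.36 to -0.13, limma adjusted p = 0.0709). For miR-25 the shift was 0.15 (interval -0.26 to 0.56, limma adjusted p = 0.631). The miR-93 ratio passed without P10 replicate 1 (-0.94, adjusted p = 0.0286), without adult replicate 3 (-0.91, 0.0175) and with the replicate block (0.0275).

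The promoter of Mcm7 is printed because the 3 hairpins are read from this gene and 4 of their arms fell together. It covers 250 bases before and 50 after the start site used by RefSeq (GRCr8, chr12:22163129-22163428, minus strand). Both strands were searched for 4 letter strings of the E2F consensus, TTTCCCGC, TTTCGCGC, TTTGGCGC and TTTGCCGC, and matches are in capitals.
Mcm7: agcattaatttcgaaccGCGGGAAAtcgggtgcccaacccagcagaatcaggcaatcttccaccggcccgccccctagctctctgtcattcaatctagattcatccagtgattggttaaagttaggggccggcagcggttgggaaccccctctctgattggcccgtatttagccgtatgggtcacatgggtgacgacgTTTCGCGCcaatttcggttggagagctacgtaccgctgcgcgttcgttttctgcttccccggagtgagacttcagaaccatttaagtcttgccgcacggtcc
The window held 2 matches that do not overlap. TTTCCCGC lay on the reverse strand, with its leftmost base as printed at -233 from the start site. TTTCGCGC lay on the forward strand, starting at base -52. Of 33469 promoter windows of this length, 2.14% held at least 1 of the 4 strings. Each string contains the pair CG, of which the Mcm7 window holds 23, and windows of like CG content were not compared. E2F factors drive replication genes at the entry to S phase. A match is a string of letters, and neither Mcm7 mRNA nor factor binding was measured here.

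The miR-106a-363 cluster spans 474 bases of named member arms on the minus strand of chromosome X (chrX:140166956-140167429, Rnor_5.0). Of its 3 tested arms, miR-19b2-3p and miR-92a2-3p fell and miR-363-3p did not pass. Differences between these arms were not tested, and the 95% intervals of miR-92a2-3p (-1.22 to -0.44) and miR-363-3p (-0.93 to 0.20) overlap. The mature sequences of miR-19b2-3p and miR-92a2-3p also occur on chromosome 15. The rows there, miR-19b1-3p and miR-92a1-3p, fell too (log2 fold changes -1.51 and -1.47). miR-363-3p, for which no such copy is listed here, is the tested arm that did not pass.

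miR-19b2-3p (chrX:140167238-140167260) belongs to the miR-19 family. It was at 53.5, 40.3, 62.5, 34.5 and 52.4 CPM in the P10 libraries and from 10.2 to 22.0 CPM, median 16.3, in adults. No adult library reached the lowest pup library. Its row fell 2.95-fold, the largest fall among the tested members (log2 fold change -1.56 ± 0.22 SE, edgeR adjusted p = 6.05e-05). The mature sequence is shared with miR-19b1-3p. The log2 fold change was -1.84 with plain library totals and -1.41 under upper-quartile scaling.

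miR-92a2-3p (chrX:140167113-140167133) was at 99.8, 145.9, 120.6, 167.6 and 115.6 CPM at P10 and from 51.1 to 101.6 CPM with a median of 71.3 in adults. The ages overlapped by 1 library at each end, as adult replicate 1 lay just above P10 replicate 1. Its fall was 1.78-fold (log2 fold change -0.83 ± 0.18 SE, edgeR adjusted p = 0.00171).

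miR-363-3p (chrX:140166956-140166976), whose sequence outside the seed is the most divergent of its family shown here, was at 22.5, 30.3, 36.7, 42.5 and 35.8 CPM at P10. Adults held from 12.8 to 37.1 CPM with a median of 29.0, so the groups overlapped broadly. The log2 fold change was -0.37 (edgeR adjusted p = 0.261), and its interval leaves room for a fall of nearly 2-fold as well as for no change.

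The remaining X-linked arms were close to the limit of detection. miR-20b-5p had 7 counts over all P10 libraries and 1 over all adult libraries, and miR-20b-3p had 12 and 9, so neither was tested. At the place that RefSeq calls Mir106a, with Mir17-2 as a synonym, the table has rows named miR-17-2, which fall outside the names followed here. Of these, miR-17-2-3p, whose sequence differs from that of miR-17-3p, held 11 counts over the P10 libraries and 4 over the adult libraries. miR-17-2-5p is identical in sequence to miR-17-5p, so its row is uncertain as a measure of the X-linked gene. It held 86 counts over the P10 libraries and 12 over the adult libraries (log2 fold change -2.28, edgeR adjusted p = 0.000183). An unnamed Ensembl feature between it and miR-20b had 13 and 3 counts.

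The share of reads placed on the X row was compared for each sequence that occurs at 2 loci, as a description with no test. For miR-92a-3p the X row took 6.01% ± 0.951 (SD, n = 5) of the summed counts of both rows at P10 and 9.07% ± 1.04 (SD, n = 6) in adults. The ranges, 4.49% to 6.97% and 7.33% to 10.3%, did not overlap. For miR-19b-3p the X row took 28.8% ± 2.43 at P10 and 28.2% ± 4.15 in adults, with ranges that overlapped fully. For miR-17-5p it took 11.2% ± 2.66 and 8.78% ± 6.41, the adult values resting on 0 to 4 counts of the X row. The 3 shares differed widely although each pair of rows has 1 mature sequence, and the deposited counts do not tell which reads set them.

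**Figure D2:**
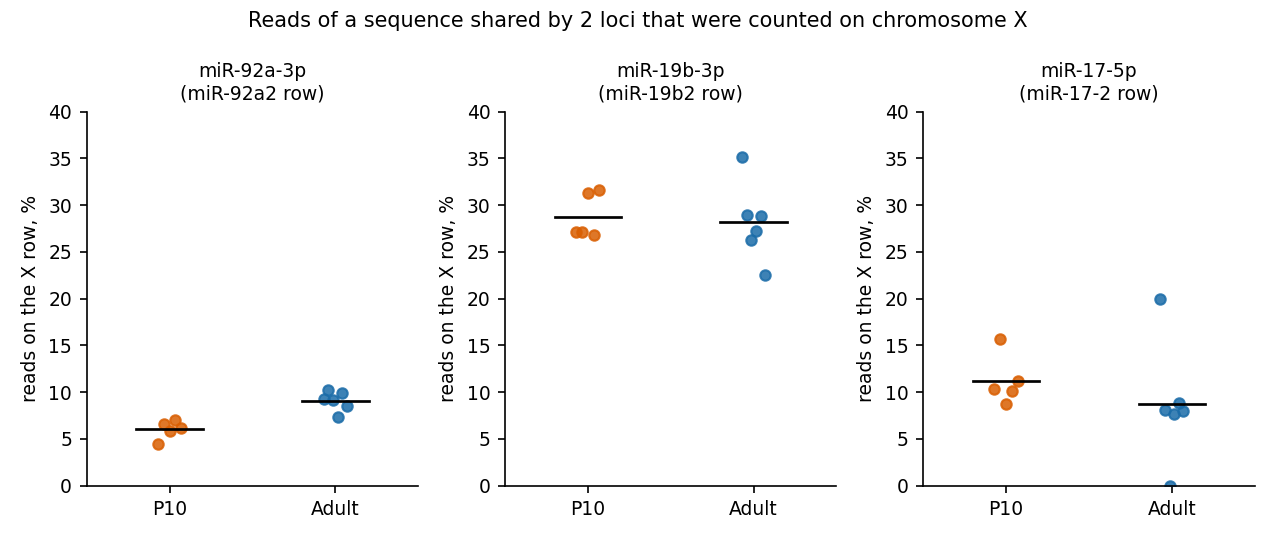
Percent of the counts of a mature sequence shared by chromosomes 15 and X that were counted on the X row, per library (orange P10, n = 5; blue adult, n = 6; bars are group means). The miR-92a-3p share is higher in every adult library (7.33% to 10.3%) than in every P10 library (4.49% to 6.97%), while the other shares overlap between ages.

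miR-92b lies alone on the minus strand of chromosome 2 (chr2:207955690-207955752, Rnor_5.0), and its 3p arm was the second most abundant member by mean CPM. miR-92b-3p is known from neural progenitors, where it supports proliferation. It was at 367.3, 396.6, 315.3, 465.3 and 376.5 CPM at P10 and from 205.6 to 474.1 CPM with a median of 302.0 in adults. The adult range enclosed the whole pup range, with adult replicate 1 highest of all 11 libraries. The log2 fold change was -0.29 (95% interval -0.69 to 0.12, edgeR adjusted p = 0.212). Without adult replicate 1 it passed as lower (-0.44, edgeR adjusted p = 0.0444), as it did with library totals alone (-0.56, adjusted p = 0.0185). miR-92b-5p had 2 counts in all P10 libraries together and 2 in all adult libraries together, and it was not tested.

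Changes within the loci were set against each other with ratios of counts within a library, which do not depend on scaling. Of 16 planned pairs, 10 had both arms tested, and the adults were compared with P10 by a two-sided exact permutation test over 462 splits, adjusted over the 10 pairs. The smallest p these splits allow is 0.00216. No planned pair within miR-106a-363 could be used, since each needed miR-20b, miR-18b or miR-106a.

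Within miR-106b~25 the ratio of miR-93-5p to miR-25-3p was lower in all 6 adult libraries than in any pup library. It was 0.104, 0.111, 0.159, 0.157 and 0.150 in P10 replicates 1, 3, 4, 5 and 6, and 0.0642 to 0.0867 in adults with a median of 0.0821. The ratio fell 1.69-fold (difference of mean log2 ratios -0.76, exact permutation p = 0.00216, adjusted p = 0.0108), so these arms, whose genes both lie inside Mcm7, changed unequally. The other pairs of the cluster did not pass. The ratio of miR-106b-3p to miR-25-3p had a log2 difference of 0.17 (exact permutation, adjusted p = 0.257), and that of miR-106b-5p to miR-25-3p one of -0.39 (adjusted p = 0.257 by the same exact test). The ratio of miR-106b-5p to miR-93-5p, which share a seed, differed by 0.37 (exact permutation, adjusted p = 0.257). Its lowest adult value was that of replicate 1, and without that library the difference was 0.57 and passed (adjusted p = 0.0198 by the exact test).

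Among arms with the miR-25 seed, none of the 3 other members changed its ratio to miR-25-3p by this test. The log2 difference was 0.22 for miR-92b-3p (exact permutation, adjusted p = 0.342), 0.13 for miR-363-3p (adjusted p = 0.677, exact) and -0.29 for miR-92a2-3p (adjusted p = 0.257, exact). At P10 the ratio of miR-92b-3p to miR-25-3p ran from 0.118 to 0.194 and in adults from 0.105 to 0.229.

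All 3 ratios of a member arm to a miR-17~92 arm, encoded on chromosome 15, rose in adults. All 9 tested arms of miR-17~92 fell (median log2 fold change -1.80), and 3 more of its 12 arms did not pass the abundance filter. The size of several of these changes was known when the pairs were chosen. The ratio of miR-25-3p to miR-92a1-3p was 1.47, 1.57, 1.22, 1.07 and 1.43 at P10 and rose in adults to between 2.07 and 3.09, with a median of 2.66 and no overlap (log2 difference 0.94, exact permutation p = 0.00216, adjusted p = 0.0108). The ratio of miR-93-5p to miR-17-5p rose 1.63-fold (log2 difference 0.70, exact permutation adjusted p = 0.0216), with adult replicate 1 highest at 23.7 on only 8 counts of miR-17-5p. The ages overlapped for this ratio, which was 6.59 to 10.5 at P10 and 9.60 to 23.7 in adults. It did not pass without P10 replicate 1 (adjusted p = 0.0571), 3 (0.0595), 4 (0.0714) or 6 (0.0595). The log2 differences were then 0.61, 0.73, 0.68 and 0.70. The ratio of miR-106b-5p to miR-20a-5p rose 2.45-fold (log2 difference 1.29, exact permutation adjusted p = 0.0216), on 5 to 19 counts of miR-20a-5p in adults. It was 2.15 to 3.05 at P10 and 3.00 to 10.6 in adults, an overlap. It lost its call without P10 replicate 1 (0.0571), 3 (0.0595) or 4 (0.0635), with log2 differences of 1.31, 1.22 and 1.29. Leaving out a library lowers the number of splits and so raises the smallest p they allow.

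**Figure D3:**
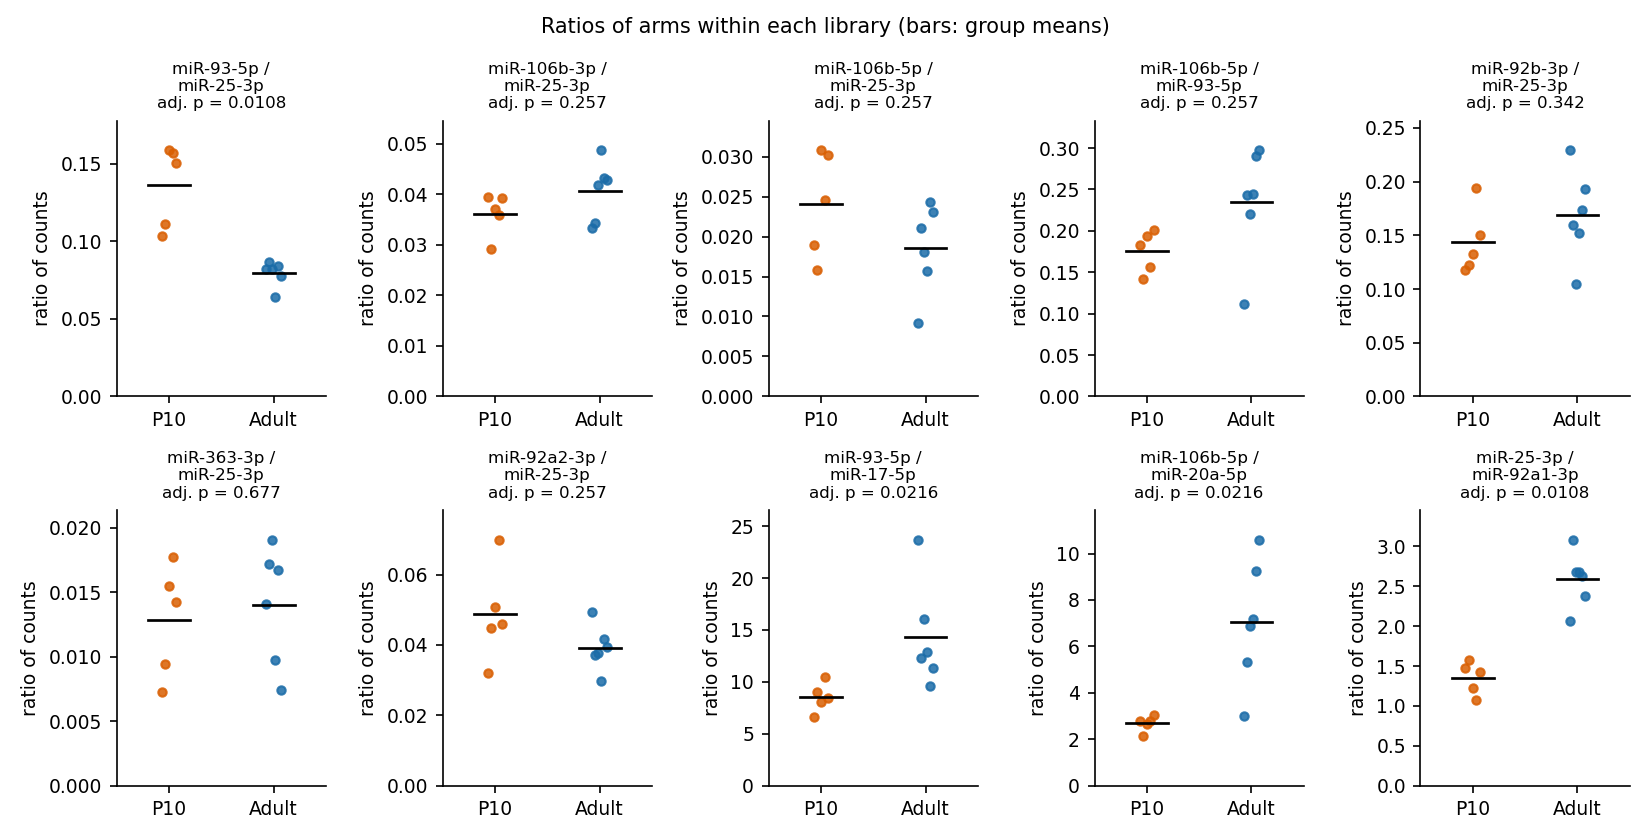
Ratio of counts of 2 arms within each library (axes start at 0; orange P10, n = 5; blue adult, n = 6; bars are group means), with the exact permutation p adjusted over the 10 pairs. The miR-93-5p to miR-25-3p and miR-25-3p to miR-92a1-3p panels show no overlap between ages, while the panels with adjusted p from 0.257 to 0.677 do overlap. The miR-93-5p to miR-17-5p and miR-106b-5p to miR-20a-5p panels (adjusted p = 0.0216) overlap as well.

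**Figure D4:**
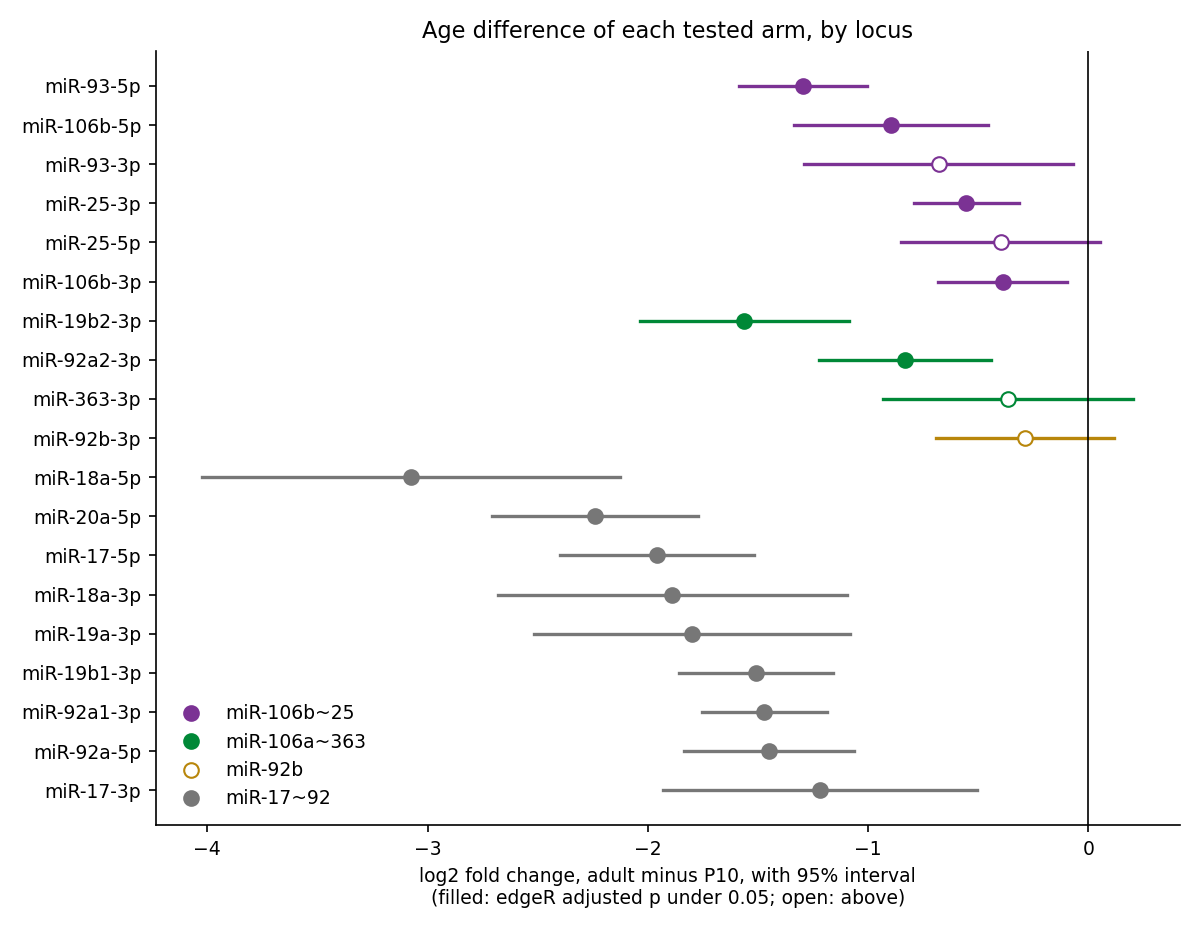
Log2 fold change (adult minus P10) of each tested arm with its 95% interval, coloured by locus, filled where the edgeR adjusted p is under 0.05. All 9 miR-17~92 arms are filled, as are 4 of 6 arms of miR-106b~25 and 2 of 3 of miR-106a-363, and every point lies left of 0.

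Summed by seed, both families were lower in adults, and the members made up more of each sum. The AAAGUGC family summed to 498.7 ± 30.1 CPM in pups (SD, n = 5) but 198.4 ± 25.4 CPM in adult libraries (SD, n = 6). Its member arms, nearly all miR-93-5p and miR-106b-5p, were 83.5% to 87.8% of that sum at P10 and 90% to 93.1% in adults. The AUUGCAC family held 5315 ± 507 CPM at P10 and 3025 ± 341 CPM in adults. The members took 57.8% to 64.8% of it at P10 and 72.5% to 78.4% in adults, with miR-92a1-3p as the main other arm. Neither pair of ranges overlapped. The miR-19 family went from 186.1 ± 32.1 to 63.7 ± 12.7 CPM, and its member arm took 23.7% to 28.4% at P10 and 20.4% to 32.5% in adults, which do overlap. These sums are descriptions over arms matched to RefSeq, with no test. Of 576 named sense features 406 were matched, so an unmatched arm with the same seed would be missing from a sum.

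**Figure D5:**
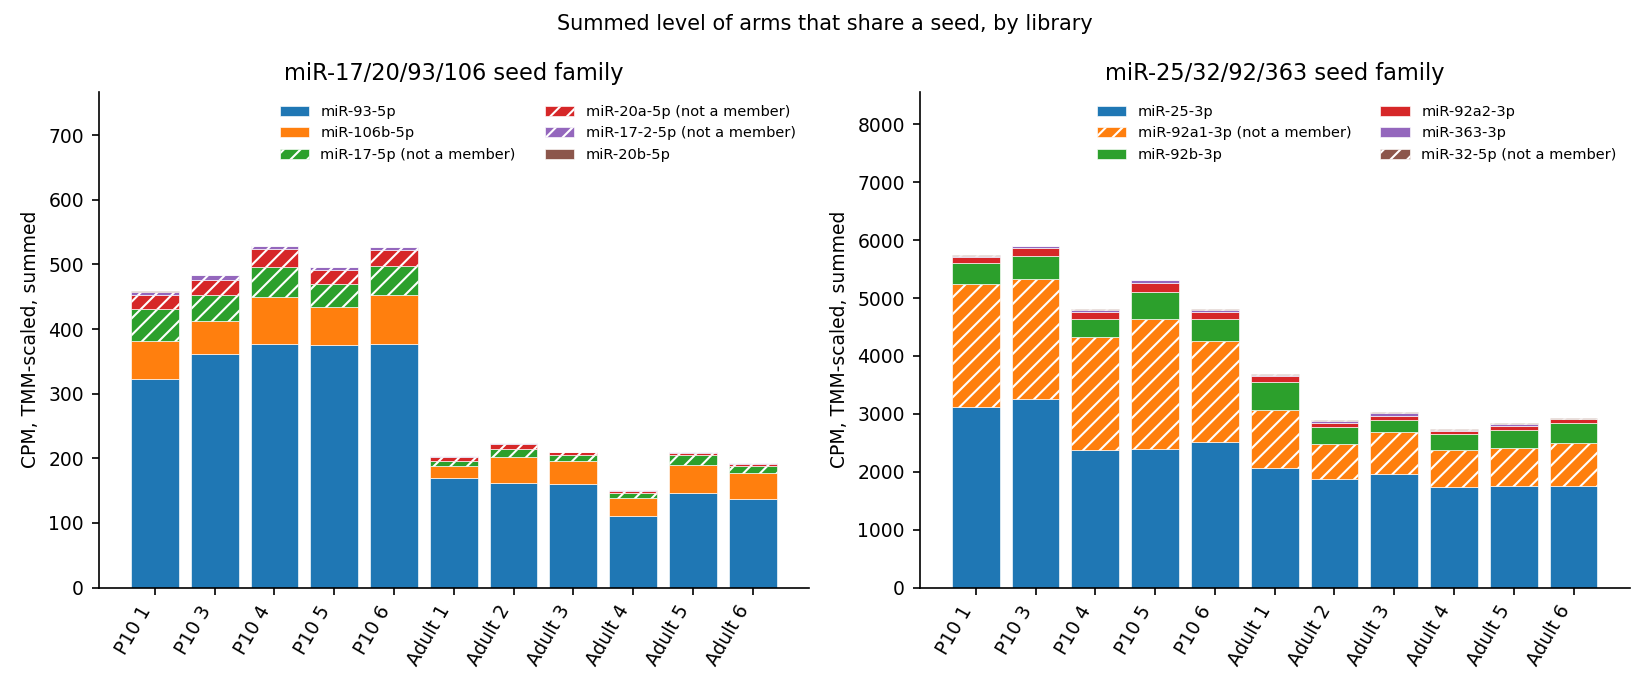
Stacked CPM (TMM-scaled) of all matched arms with the miR-17 family seed (left) and the miR-25 family seed (right) in each library, plain for members and hatched for arms of other loci or names. The left sums lie between 458.2 and 528.7 CPM at P10 and between 150.6 and 223.0 in adults, and the right sums between 4809 and 5902 and between 2742 and 3692.

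Other cells in an islet preparation also hold these miRNAs, and in bulk RNA fewer cells of a type and less of a miRNA per cell cannot be told apart. Of the mesenchymal markers 4 of 6 names had rows, and 5 of their 8 tested arms were lower and 1 higher in adults. Their summed level was 33461 to 61341 CPM at P10 and 17460 to 58591 CPM in adults. Nearly all of it was miR-143-3p, so the sum says little of the other arms. The higher arm was miR-152-3p, and miR-199a-3p was at 1171 to 1327 CPM at P10 and 129.2 to 559.6 CPM in adults. Adult replicate 1 had the highest adult miR-199a-3p. It was also the highest adult library for miR-25-3p, miR-93-5p, miR-92b-3p, miR-92a2-3p and miR-19b2-3p, and the lowest for miR-106b-5p. For miR-106b-3p (68.6 CPM), miR-363-3p (28.8 CPM), miR-25-5p and miR-93-3p it was neither highest nor lowest. The islet marker miR-375-3p was also highest in this library among the adults (325126 CPM). Leukocyte markers summed to 681.2 to 1427 CPM at P10 and 248.996 to 832.5 CPM in adults, and 1 of 4 tested arms was lower (miR-150-5p). Erythroid markers, from red cells in which miR-25 and miR-92a are abundant, summed to 24.2 to 72.3 CPM at P10 and 14.5 to 63.8 CPM in adults, with 0 of 2 tested arms called (miR-451-5p had an edgeR adjusted p of 0.505). The acinar sum was 22.2 to 37.7 CPM at P10 and 28.6 to 127.1 CPM in adults, and 2 of 3 tested arms were higher. The list taken as endocrine held miR-375, miR-7a, miR-7b, miR-184, miR-153, miR-129, miR-132 and miR-212. Of its 18 tested arms 12 were higher and 1, miR-184-3p, was lower, with a median log2 fold change of 0.96. They summed to 115375 to 168185 CPM at P10 and 255316 to 328739 CPM in adults. No marker arm in these lists was at 0 in every library, and the endothelial miR-126 had no named row. The part of these cells in the member changes was not tested. Without both P10 replicate 3 and adult replicate 1, 6 member arms fell, with miR-93-3p (edgeR adjusted p = 0.0321) in place of miR-106b-3p (0.0510).

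The features most like the cluster were found by Pearson's r of log2 CPM with the mean standardised level of miR-25-3p, miR-93-5p and miR-106b-3p over the 11 libraries. The highest of 438 were miR-342-3p (r = 0.97), an antisense feature at miR-3120-5p (0.95), miR-221-3p (0.93), an unnamed Ensembl feature (0.93) and miR-181d-5p (0.93). The libraries share the age contrast, and 67 of the 438 features had an r above 0.8, so the ranking is a description. miR-342-3p went from a mean of 392.1 CPM at P10 to 239.7 CPM in adults, with a log2 fold change of -0.71. The others listed fell further. Their log2 fold changes were -3.08 for the antisense feature at miR-3120-5p and -1.22 for miR-221-3p. The unnamed Ensembl feature had -2.47 and miR-181d-5p -2.13.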

How the data were processed

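Small RNA libraries (Illumina TruSeq, total islet RNA, per the labels' protocols) were analysed from raw counts (the authors' deposited read counts per mature arm and locus). Positions refer to Rnor_5.0, as the file headers state. The submitters' processing notes name edgeR and DESeq; for the aligner, counting rules and annotation, nothing is given in the sources used here. Counts are of reads, as the protocols mention no molecular identifiers.

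Each name entered once, with its highest count per library (898 of 950 rows). In R 4.3.3, edgeR 4.0.16 filtered features (filterByExpr), scaled by TMM and tested age by robust quasi-likelihood (adjusted p threshold 0.05). Limma 3.58.1 tested arm ratios (prior count 2), and ratios of counts had 0.5 added. Alternatives included DESeq2 1.42.0. Steps were tested on simulated data. Libraries of 1 age all differed by more than counting noise (chi-square over its degrees of freedom at least 11.7). Members, lists and tests were chosen with earlier results of these data known. Every member is accounted for; miR-17~92 arms, marker lists and the 5 features with the most similar profile complete the named miRNAs. Sequences come from RefSeq (GRCr8).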

Additional observations from a re-analysis of the deposited data

Results flagged for a closer look

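The level of miR-93-5p in P10 replicate 1, 323.1 CPM, lay apart from the other 4 pup libraries, the nearest of which held 361.7 CPM; the gap was 0.719 of the range, above Dixon's 95% critical value for 5 samples. It was 1 of 40 groups checked, and chance flags about 1 in 20. All 6 adult libraries were lower still.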

How the results depend on the processing

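Over 22 alternatives the number of member arms that fell ran from 5 to 9 and the number that rose was 0 in each, and 5 of the 6 calls held in each of them, miR-106b-3p being the exception. The median log2 fold change moved to -0.89 with library totals alone and to -0.45 with upper-quartile scaling, and ran from -0.68 to -0.51 when 1 library was left out. Among all features 97 were higher with TMM and 54 with library totals. Leaving out 1 library gave 0 to 1 called arm ratios and 2 to 5 called count ratios, the latter tested over fewer splits. The ratio of miR-363-3p to miR-25-3p, which was not called, ran from -0.057 (without P10 replicate 1, a turn of direction whose cause was not tested) to 0.299 (without adult replicate 6) when 1 library was left out. Shared replicate numbers showed no clear pairing: deviations of same-numbered libraries correlated above 0.1 in 2 of 5 pairs, and 0 of 5 P10 libraries correlated best with their own number. With only 5 pairs, this check cannot decide whether same-numbered libraries shared a preparation. With the replicate block 5 arms fell, 1 arm ratio (miR-93) and 4 count ratios were called, and the cause was not tested. The tested passenger arms miR-25-5p and miR-93-3p rest on at most 53 counts in any library, and miR-20b and miR-92b-5p were too low to test.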
